A study of Mus musculus with 2 samples.

Results

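The 10 genes described here, of 27998 listed, mark the perivenous end of the liver lobule and are named for their dependence on Wnt signalling. They are the 4 genes of glutamine and ammonia handling Glul, Oat, Slc1a2 and Rhbg, the cytochromes P450 Cyp2e1 and Cyp1a2, the secreted factor Lect2, and the Wnt feedback gene Axin2, the receptor gene Lgr5 and the transcription factor gene Tbx3. They were taken as a list of names with no threshold on values, a list that was drawn up with earlier results of these data known, and all 10 had an entry in both libraries. Hepatocytes of C57BL/6 mice (C57BL/6J in the study's methods) on a normal diet were isolated by collagenase perfusion in 2 steps, and their transcripts were measured by scRNA-Seq in droplets. The undamaged library (0 h) came from healthy liver and the PHx48h library from liver 48 h after partial hepatectomy (PHx), the surgical removal of part of the liver. Per the study's methods each library was made from part of the cells of 1 hepatocyte preparation of an adult male mouse. The labels give an age of 10 to 12 weeks at surgery, and the study's methods give a somewhat younger range. Each group was 1 library. Every difference below therefore compares these 2 libraries, has no replicate check and carries no p-value.

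The liver lobule is a gradient. Blood enters at the portal side and leaves at the central vein, and endothelial cells around that vein secrete Wnt ligands and R-spondins. In the hepatocytes next to it the ligands stabilise beta-catenin, which then acts with TCF/LEF factors at target genes. The innermost layer makes glutamine from the ammonia that the periportal urea cycle has left over, and a wider band carries drug-metabolising cytochromes P450. Wnt signalling is known to be needed for both, and its own feedback genes mark the pathway's activity.

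A barcode marks the transcripts of 1 droplet, and a unique molecular identifier (UMI) lets every captured molecule be counted once. The undamaged library held 59202 barcodes and 96118593 UMIs, and the PHx48h library 1586 barcodes and 18198719 UMIs. Both were divided by the share of UMIs from 13 mitochondrial (mt) genes. High-mt barcodes, over 30% mt, numbered 3870 (6.54%) at 0 h and 765 (48.2%) at PHx48h. Low-mt barcodes, under 2% mt, numbered 52587 (88.8%) and 522 (32.9%). The median depth in non-mt UMIs was 1213.5 and 4411 in the high-mt sets and 1413 and 5271.5 in the low-mt sets. In the low-mt undamaged set the counts of the abundant members were spread over barcodes closer to 1 shared rate than in the high-mt undamaged set. The spread values further on show this for each gene, and whether these low-mt barcodes are cells was not decided. Low-mt levels, and ratios between time points that use them, are therefore given as values of barcode sets. The libraries shared 148 barcode sequences. All 10 hepatocyte markers were detected in all 4 sets. Markers of T or NK cells, B cells and neutrophils summed to at most 6.29 UMIs per 1000000 non-mt UMIs (CPM here). Stromal markers, 9 of 9 detected in each set, summed to between 27.9 and 33.1 in the first 3 sets and to 173 in the low-mt PHx48h set. Endothelial markers ranged from 33.8 to 76.2, macrophage markers from 27.2 to 44.9 and cholangiocyte markers from 5.10 to 14.5. Erythroid markers were at 162 in the low-mt undamaged set and at most 3.98 in the others. Their part in the results was not tested.

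The sequences upstream of the RefSeq transcription start are shown for the 4 members that carry the TCF/LEF core motif, because these are the letters that the nuclear factors of the pathway are known to recognise. The motif searched was CTTTGA, which reads TCAAAG on the other strand, in the 250 bases before the start. It was present in 4 of the 7 members with an entry in the RefSeq table of GRCm38.p6, and in 4544 of all 32851 promoters of that table (13.8%). Glul, Oat and Axin2 did not hold these letters in this window, and Rhbg, Tbx3 and Lgr5 had no entry. The stretches run 5′ to 3′ on the strand of the gene, end before the first annotated exon base in the window, and show the motif in capitals. They lie at chr2:102706188-102706355 (plus strand, Slc1a2), chr7:140763569-140763738 (plus strand, Cyp2e1), chr9:57683704-57683905 (minus strand, Cyp1a2) and chr13:56548560-56548788 (minus strand, Lect2).
Slc1a2: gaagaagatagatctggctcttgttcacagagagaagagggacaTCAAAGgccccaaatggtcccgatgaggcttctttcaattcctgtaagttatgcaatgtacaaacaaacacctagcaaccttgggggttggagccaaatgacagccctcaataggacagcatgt
Cyp2e1: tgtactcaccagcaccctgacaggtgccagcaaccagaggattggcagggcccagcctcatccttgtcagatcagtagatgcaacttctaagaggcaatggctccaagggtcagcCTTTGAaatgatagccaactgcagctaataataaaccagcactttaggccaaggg
Cyp1a2: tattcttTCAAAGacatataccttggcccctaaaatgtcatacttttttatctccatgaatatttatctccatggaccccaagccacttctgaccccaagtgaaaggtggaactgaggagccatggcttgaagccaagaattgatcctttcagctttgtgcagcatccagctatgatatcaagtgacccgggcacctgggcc
Lect2: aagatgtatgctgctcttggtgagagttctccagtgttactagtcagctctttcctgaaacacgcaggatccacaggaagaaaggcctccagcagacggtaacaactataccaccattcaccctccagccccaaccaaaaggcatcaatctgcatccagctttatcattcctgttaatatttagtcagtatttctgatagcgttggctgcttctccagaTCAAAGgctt

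The first letter of the motif lay 206 bases before the start in Slc1a2, 135 in Cyp2e1, 243 in Cyp1a2 and 31 in Lect2. The RefSeq start used for Slc1a2 lies inside the GENCODE gene, so its stretch is intronic to longer annotated transcripts and is not the region before the gene's first base. The RefSeq starts used for Cyp2e1 and Cyp1a2 also lie inside the GENCODE genes, whose first bases directly follow the stretches printed. The motifs of these 2 genes are therefore nearer to the first base of the GENCODE gene than the distances given. A second copy in Slc1a2, 77 bases before the start, lies beyond the stretch printed. A match of 6 letters is a description of the sequence and not a measured binding site.

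The glutamine and ammonia genes were examined first. Glul, Slc1a2 and Rhbg were lower at PHx48h than at 0 h in both barcode sets, and Oat was higher. Levels are CPM of the gene on the UMIs summed over the set, with 95% Poisson intervals that cover counting error only. Glul (chr1:153899944-153909723, plus strand, GRCm38) encodes glutamine synthetase. Its level was 374 (359 to 390) in high-mt undamaged barcodes, 272 (269 to 276) in low-mt undamaged barcodes, 164 (153 to 176) in high-mt PHx48h barcodes and 159 (145 to 174) in low-mt PHx48h barcodes. Both PHx48h levels were thus below both undamaged levels, and their intervals overlapped each other. The level was 2.28-fold lower at PHx48h in the high-mt set, a log2 ratio of -1.19 (-1.30 to -1.07), and -0.77 (-0.91 to -0.65) in the low-mt set.

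Slc1a2 (chr2:102658659-102790784, plus strand) encodes a transporter that takes up glutamate. Its level was 151 and 108 in the high-mt and low-mt undamaged barcodes and 54.9 and 44.0 in the corresponding PHx48h barcodes. The intervals of the PHx48h levels, 48.6 to 61.7 and 37.0 to 52.0, overlapped, and both lay below the undamaged levels. The log2 ratio was -1.46 (-1.66 to -1.27) in the high-mt set and -1.29 (-1.54 to -1.05) in the low-mt set. Rhbg (chr3:88242874-88254709, minus strand) encodes an ammonium transporter of the basolateral membrane. It stood at 59.7 (53.6 to 66.4) in high-mt undamaged barcodes, against 22.3, 17.2 and 11.8 in the low-mt undamaged, high-mt PHx48h and low-mt PHx48h sets. It was 3.46-fold lower at PHx48h among high-mt barcodes, with a log2 ratio of -1.79 (-2.15 to -1.45), and the ratio was -0.92 (-1.43 to -0.45) among low-mt barcodes.

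Oat (chr7:132557478-132576398, minus strand), the mitochondrial ornithine aminotransferase that links ornithine to glutamate, went the other way. Its level was 370 (354 to 386) in high-mt undamaged barcodes and 626 (604 to 648) in high-mt PHx48h barcodes, 1.69-fold higher. In the low-mt sets it was 854 (848 to 861) and 1153 (1116 to 1192), so that Oat was lower in high-mt than in low-mt barcodes in both libraries. The log2 ratios between time points were 0.76 (0.68 to 0.84) and 0.43 (0.38 to 0.48). The median of all 8533 genes with a mean level of at least 5 CPM was itself 0.55 in the high-mt set, so Oat stood 0.21 above it, while the median of the 7530 genes of the low-mt set was 0.07.

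**Figure D1:**
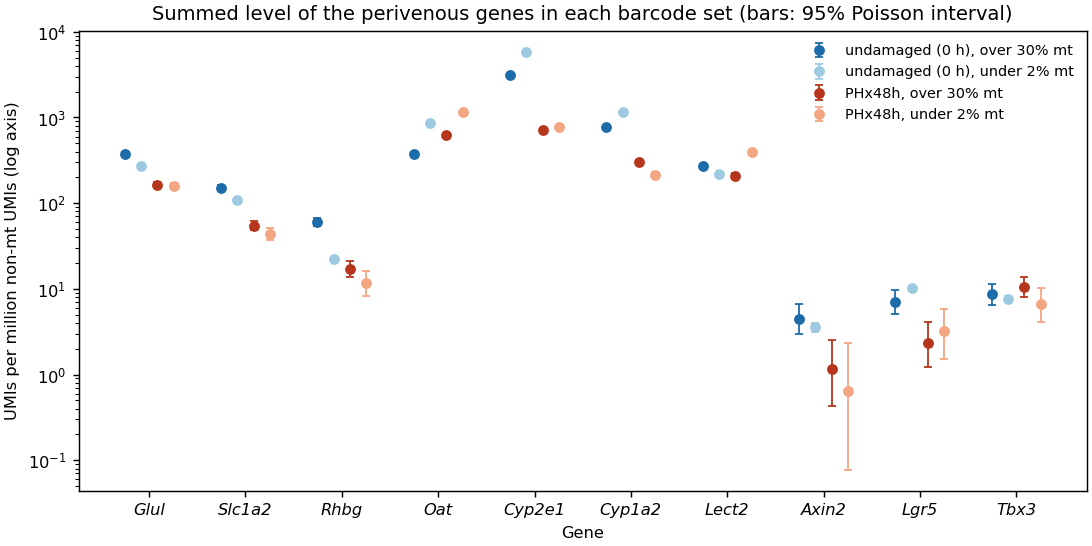
Level in CPM (UMIs per 1000000 non-mt UMIs, log axis) of the 10 genes in the 4 barcode sets, with 95% Poisson intervals as bars and 1 library per group. Glul, Slc1a2, Cyp2e1 and Cyp1a2 lie lower in both PHx48h sets than in both undamaged sets, whereas Oat and Lect2 do not, and Axin2, Lgr5 and Tbx3 lie near or below 10 CPM with wide bars.

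The P450 genes were lower at PHx48h by more than any of the 4 genes above in the low-mt set, and Cyp2e1 also in the high-mt set. Cyp2e1 (chr7:140763739-140774987, plus strand) oxidises ethanol and paracetamol. Its level was 3144 (3098 to 3190) in high-mt and 5775 (5758 to 5792) in low-mt undamaged barcodes, and 708 (685 to 731) and 774 (743 to 805) in the PHx48h barcodes. It was therefore 4.44-fold lower in the high-mt and 7.47-fold lower in the low-mt set, with log2 ratios of -2.15 (-2.20 to -2.10) and -2.90 (-2.96 to -2.84).

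Cyp1a2 (chr9:57676937-57683703, minus strand), which metabolises caffeine, stood at 782 and 1167 in the high-mt and low-mt undamaged barcodes. At PHx48h it stood at 300 (285 to 315) and 213 (197 to 230). The order of the sets was reversed between the time points, since Cyp1a2 was lower in high-mt than in low-mt barcodes at 0 h and higher at PHx48h. The log2 ratio was -1.38 (-1.47 to -1.30) in the high-mt set and -2.45 (-2.56 to -2.34) in the low-mt set.

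Lect2 (chr13:56542464-56548502, minus strand), a chemotactic protein secreted by hepatocytes, had opposite directions in the sets. Its level was 274 (260 to 287) and 209 (197 to 222) in high-mt barcodes at 0 h and PHx48h, and 220 (217 to 223) and 398 (376 to 421) in low-mt barcodes. The log2 ratio was -0.39 (-0.50 to -0.27) among high-mt barcodes and 0.86 (0.77 to 0.94) among low-mt barcodes. The ratio among low-mt barcodes remained above 0 under all alternatives run for that set, between 0.57 and 0.91. The stromal markers were also higher in low-mt PHx48h barcodes, and their part in this ratio was not tested.

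The Wnt genes proper were sparse. Axin2 (chr11:108920349-108950783, plus strand), a scaffold of the beta-catenin destruction complex and a feedback target of the pathway, had 26 UMIs in high-mt undamaged barcodes and 6 in high-mt PHx48h barcodes. These were levels of 4.50 (2.94 to 6.59) and 1.18 (0.43 to 2.56), and the log2 ratio was -1.94 (-3.51 to -0.62). In the low-mt sets Axin2 had 282 and 2 UMIs, a log2 ratio of -2.49 (-5.54 to -0.62). The intervals of both ratios lay below 0.

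Lgr5 (chr10:115450311-115587780, minus strand), a receptor for R-spondins, had 41 UMIs at 0 h and 12 at PHx48h in high-mt barcodes, at levels of 7.10 (5.09 to 9.63) and 2.35 (1.21 to 4.11). Its level in low-mt barcodes was 10.1 (9.42 to 10.8) and 3.19 (1.53 to 5.86). The log2 ratios, -1.59 (-2.66 to -0.64) and -1.66 (-2.73 to -0.78), were close to each other. Tbx3 (chr5:119670669-119684724, plus strand), a T-box factor, showed no difference detectable at this depth. Its levels were 8.65, 7.54, 10.6 and 6.70 in the same order of sets as for Glul, with overlapping intervals, and its log2 ratios were 0.29 (-0.29 to 0.87) and -0.17 (-0.87 to 0.45). The ratio in the high-mt set was -0.26 when centred on the median gene.

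**Figure D2:**
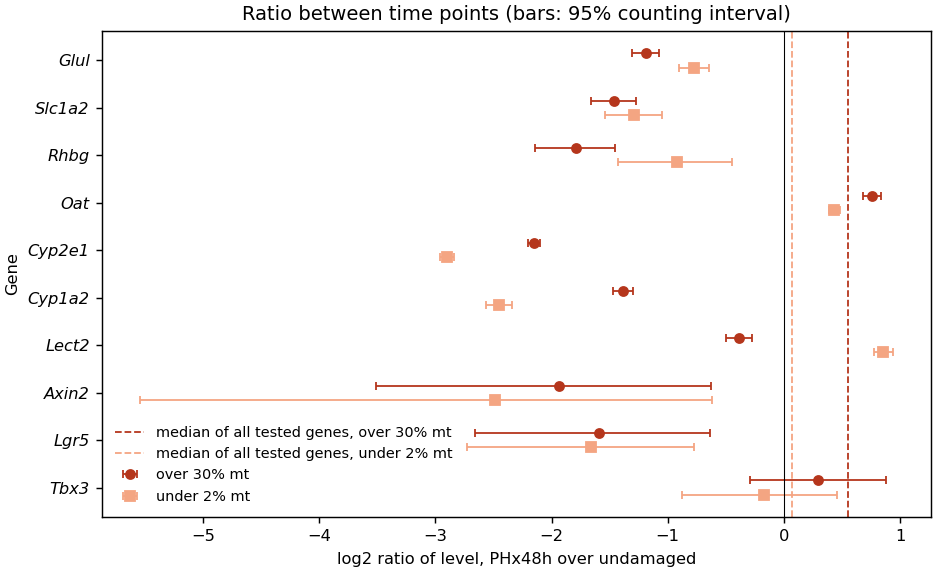
Log2 ratio of the level at PHx48h over undamaged for each gene in high-mt barcodes (circles) and low-mt barcodes (squares), with 95% counting intervals as bars, and the median ratio of all tested genes of each set as dashed lines at 0.55 and 0.07. Of the 10 genes 8 lie below 0 in each set, Cyp2e1 and Cyp1a2 lie farther below 0 in low-mt barcodes, and Lect2 lies on opposite sides of 0.

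Among high-mt barcodes, 8 of the 10 members reached the minimum level of 5 CPM. Of these 5 (Glul, Slc1a2, Rhbg, Cyp2e1 and Cyp1a2) were at least 2-fold lower at PHx48h, where 5.06% of all tested genes were, and none was at least 2-fold higher, where 30.7% of all tested genes were. The median log2 ratio of the 8 was -1.28, against 0.55 for all tested genes. Among low-mt barcodes, 4 of 9 members (Slc1a2, Cyp2e1, Cyp1a2 and Lgr5) were at least 2-fold lower beside 20.2% of all tested genes, none was at least 2-fold higher beside 24.5%, and the medians were -0.90 and 0.07. The count in the high-mt set depended on which barcodes weighed most. With a limit of 50% mt it was 2, beside 5.92% of all tested genes. With the mean of single-barcode levels in place of the summed UMIs it was 3, beside 5.47%. Oat was then at least 2-fold higher, as were 30.5% of all tested genes.

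High-mt and low-mt barcodes of the same library were also compared. At 0 h, Oat was 2.31-fold lower in high-mt barcodes and Rhbg 2.68-fold higher, and the other 7 of 9 members tested lay within 2-fold (9.38% of all tested genes were at least 2-fold lower and 13.3% higher). At PHx48h all 8 members tested lay within 2-fold, where 6.59% of all tested genes were at least 2-fold lower and 34.3% higher. The level also varied with the mt share inside the high-mt set. In the 98 PHx48h barcodes with over 70% mt UMIs, Glul stood at 535 (448 to 635), Slc1a2 at 217, Cyp2e1 at 1484 and Oat at 1059. In the 430 barcodes between 50% and 70% the same genes stood at 136, 47.5, 666 and 582.2, below all 4 values. At 0 h, the 18 barcodes with over 70% mt held only 5 UMIs of Glul.

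**Figure D3:**
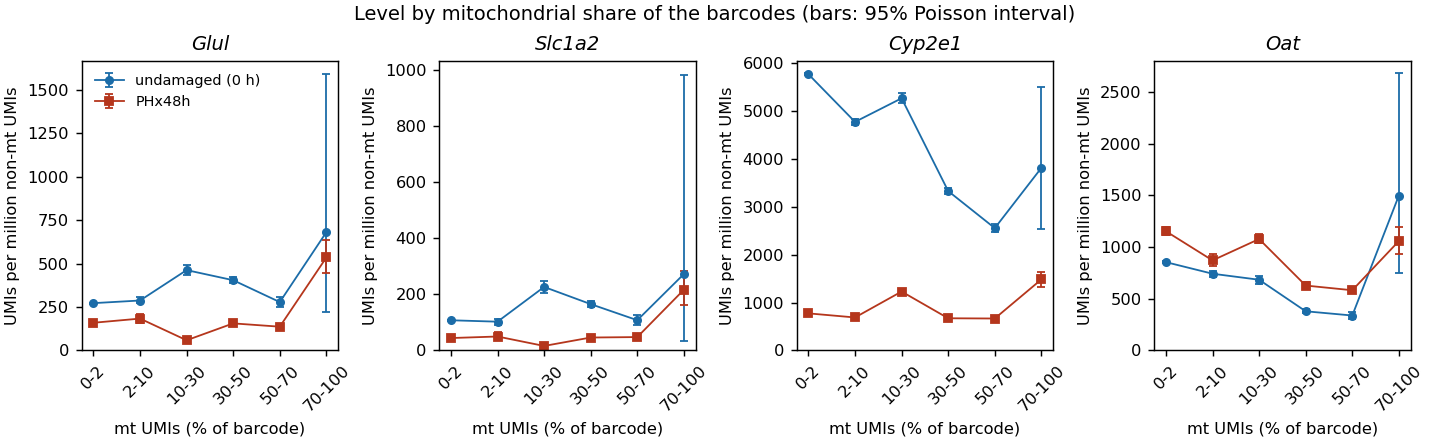
Level in CPM (UMIs per 1000000 non-mt UMIs) of Glul, Slc1a2, Cyp2e1 and Oat by the mt share of the barcode, in 6 classes, for the undamaged (circles) and PHx48h (squares) library, with 95% Poisson intervals as bars. Glul, Slc1a2 and Cyp2e1 lie lower at PHx48h than at 0 h in each class below 70% mt, and all 4 genes rise in the last PHx48h class, which holds 98 barcodes.

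The members were next set beside fixed lists of the same pathway and of the lobule's zones, which were chosen with earlier results of these data known. Of 11 receptors and turnover genes of the Wnt pathway, 9 reached the minimum level in each set. In the high-mt set 4 of the 9 were at least 2-fold lower at PHx48h and none higher, beside 5.06% and 30.7% of all tested genes, with a median log2 ratio of -0.93 against 0.55. The R-spondin receptor Lgr4 had a ratio of -0.70 (-0.94 to -0.46), the Wnt co-receptors Lrp6 and Lrp5 had -0.22 (-0.50 to 0.06) and -1.35 (-1.71 to -0.998), and the frizzled receptor Fzd8 had -2.34 (-3.00 to -1.73). In the low-mt set all 9 were at least 2-fold lower, beside 20.2% of all tested genes, with a median of -2.34 against 0.07. Their levels in low-mt PHx48h barcodes rested on few UMIs, from 3 for Fzd8 to 58 for Lgr4, so these ratios are imprecise.

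The genes of the cytoplasmic arm had median ratios nearer to those of all tested genes than the receptors had. None of the 7 tested dishevelled and destruction complex genes was at least 2-fold lower in the high-mt set, beside 5.06% of all tested genes. Axin1, named after its value was seen, was higher (1.23, 0.54 to 1.95), beside 30.7%. The median of the 7 was 0.49, near that of all genes. The kinase gene Csnk1a1 had a log2 ratio of 0.70 and the dishevelled gene Dvl1 0.50. Of the effectors, Ctnnb1 (beta-catenin) had 0.54 and Tcf7l2 -0.29 (-0.59 to 0.00), and none of the 4 tested passed 2-fold in either direction. The median of the 4 was 0.34. In the low-mt set none of the 6 tested genes of the complex passed 2-fold, and Tcf7l2 was the 1 effector of 3 that was lower, at -1.04. Of all tested genes 20.2% were lower and 24.5% higher there. The medians were -0.28 for the complex and -0.65 for the effectors, against 0.07. With so few genes, these counts are not read as a finding.

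Ligands could not be followed in these hepatocyte preparations. None of 6 Wnt ligands and R-spondins reached the minimum level in either set, and Wnt9b and Rspo1 had 0 UMIs in high-mt barcodes of both libraries. Below that level, Rspo3 had 60 UMIs at 0 h and 14 at PHx48h in low-mt barcodes, at 0.76 and 4.46 CPM. Its log2 ratio there was 2.55 (1.60 to 3.41). Stromal markers were also higher in low-mt PHx48h barcodes, and their part in this ratio was not tested. Among other targets and inhibitors, Ccnd1 (cyclin D1) was higher at PHx48h by 5.44 (4.88 to 6.06) on the log2 scale in the high-mt and 4.51 in the low-mt set. Myc had -1.29 in the high-mt set, and the secreted Wnt inhibitor Notum had -0.26 (-0.63 to 0.11) there and -2.49 in the low-mt set. The 3 tested targets of the high-mt set were therefore divided between lower, higher and within 2-fold, beside 5.06% of all tested genes lower and 30.7% higher.

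Perivenous genes outside the 10 did not move as 1 group. Of 15 tested in the high-mt set, 4 were at least 2-fold lower and 3 higher, beside 5.06% and 30.7% of all tested genes, with a median of -0.09 against 0.55. The P450 genes Cyp3a11, Cyp2c50 and Cyp2a5 had log2 ratios of -0.09, -1.94 and 0.57, and Aldh1a1, which oxidises retinal, had 0.71. In the low-mt set 6 of 15 were at least 2-fold lower and none higher, beside 20.2% and 24.5%, with a median of -0.56. Of the 13 periportal genes tested in the high-mt set, 1 (Cyp2f2, -1.39) was at least 2-fold lower and 5 were higher, with a median of 0.76. The count of higher genes is near the 30.7% of all tested genes, whose median was 0.55. The urea cycle genes Cps1 and Ass1 had 0.38 and 0.76, and the apolipoprotein gene Apof had -0.53. In the low-mt set 5 of 13 periportal genes were lower and 2 higher, beside 20.2% and 24.5% of all tested genes, with a median of -0.56. Cyp2a5, Cyp2c50 and Cyp3a11 belong to P450 families of similar sequence, so their counts are uncertain to that extent.

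How evenly the transcripts were spread over barcodes was measured after thinning each barcode to 500 non-mt UMIs, which left out 75 undamaged high-mt barcodes and none of the others. At least 1 UMI of Glul was found in 399 of 3795 high-mt undamaged barcodes, 10.5% (95% exact binomial interval 9.56 to 11.5). With the same number of UMIs spread at 1 Poisson rate, 17.0% of barcodes would hold one. The low-mt undamaged barcodes had a lower Glul level but held a Glul UMI in 12.6% (12.4 to 12.9), where 1 rate gives 12.8%. At 0 h, Glul was therefore found in a smaller share of high-mt than of low-mt barcodes despite its higher level there.

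At PHx48h Glul was found in 7.45% (5.69 to 9.55) of high-mt barcodes against 10.9% at 1 rate, and in 9.20% (6.86 to 12.0) of low-mt barcodes against 9.83%. These shares overlapped, as did the Glul levels of both sets. Barcodes with 3 or more UMIs of markers of other cell types were taken as a background at the same 500 UMIs. They were chosen without a limit on hepatocyte transcripts, so they need not lack hepatocyte RNA. Among them Glul was found in 7.14% (1.5 to 19.5) of 42 undamaged high-mt barcodes and 9.72% (7.06 to 12.9) of 422 undamaged low-mt barcodes. At PHx48h the corresponding values were 5.45% (1.14 to 15.1) and 13.6% (2.91 to 34.9). All 4 shares lay within those intervals and are not read as expression in single barcodes. Without thinning the shares were 20.1% and 32.0% at 0 h and 37.6% and 59.8% at PHx48h.

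Cyp2e1 was found more often. It was found in 61.5% (59.96 to 63.1) of high-mt undamaged barcodes against 80.2% at 1 rate, and in 94.3% (94.1 to 94.5) of low-mt undamaged barcodes against 94.5%. At PHx48h the shares were 28.8% (25.6 to 32.1) against 34.0% and 33.7% (29.7 to 38.0) against 34.3%. Among barcodes with other markers Cyp2e1 was found in 59.5% (43.3 to 74.4) and 89.8% (86.5 to 92.5) of the high-mt and low-mt sets at 0 h. At PHx48h it was found in 21.8% (11.8 to 35.0) and 50% (28.2 to 71.8). The low-mt undamaged share alone lay above its interval, but it was also close to that of 1 rate. Barcodes with other markers may themselves hold hepatocyte RNA, so the comparison cannot separate expression from background. No Cyp2e1 share is therefore read as expression in single barcodes. Oat was found in 15.1% of high-mt undamaged barcodes against 16.9% at 1 rate.

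**Figure D4:**
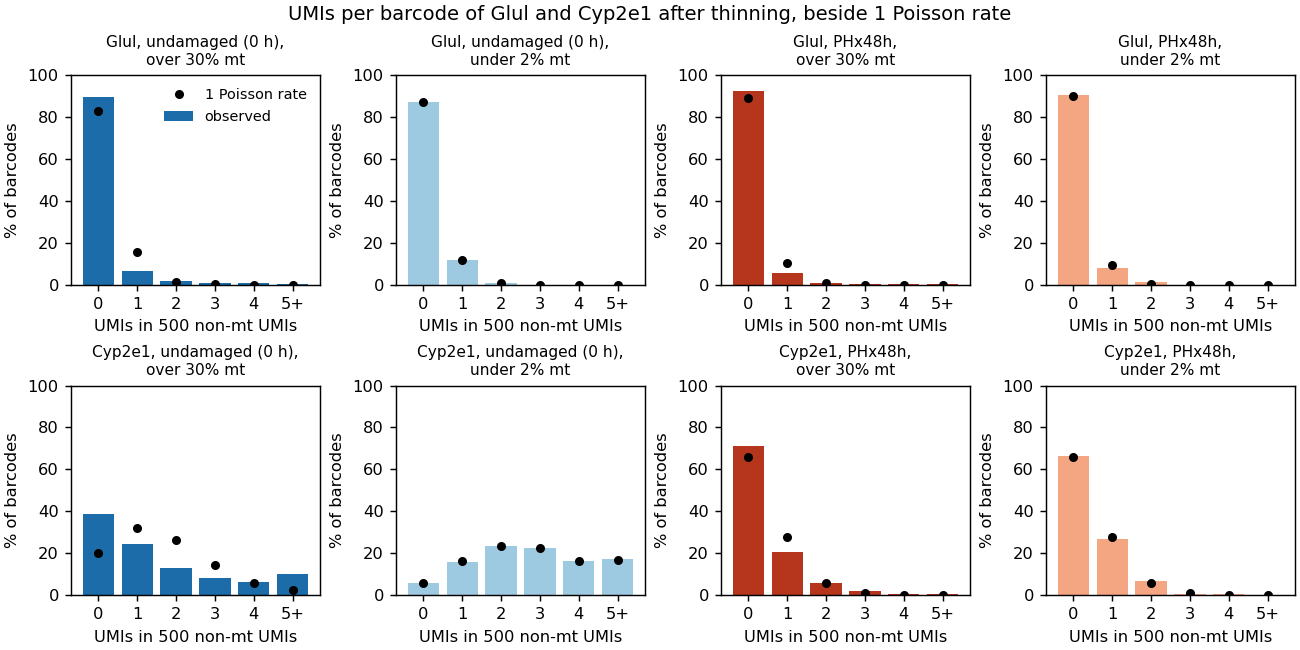
Share of barcodes (%) by the number of Glul (upper row) or Cyp2e1 (lower row) UMIs among 500 non-mt UMIs in the 4 barcode sets, as bars, beside the share that 1 Poisson rate with the same mean gives, as black points. In low-mt undamaged barcodes the bars meet the points, and in high-mt undamaged barcodes 38.5% hold no Cyp2e1 UMI where 1 rate gives 19.8%.

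The spread was expressed as an excess squared coefficient of variation (CV squared), the variance above the mean over the mean squared, which is 0 for 1 shared rate. For Glul it was 8.06 in high-mt and 0.34 in low-mt undamaged barcodes, and 9.50 in high-mt PHx48h barcodes. The 10% of high-mt undamaged barcodes richest in Glul held 97.3% of its UMIs, against 80.7% in the low-mt set. Only 10.5% and 12.6% of these barcodes held any Glul UMI after thinning, so both values largely reflect sparse counts. For Cyp2e1 the excess was 0.89 and 0.0026 at 0 h and 1.32 and 0.071 at PHx48h. In low-mt undamaged barcodes Slc1a2 had 0.54, Rhbg 0.48, Lect2 0.15, Oat 0.067 and Cyp1a2 0.030. On all UMIs Rhbg had 1.23 there.

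The glutamine and ammonia genes other than Oat had the highest excess among the abundant members, and the P450 genes the lowest, in the high-mt undamaged set. Slc1a2 had 6.36, Rhbg 4.13, Oat 1.80, Lect2 1.65 and Cyp1a2 0.80. At PHx48h the values of Cyp1a2 and Lect2 were 0.13 and 0.37 with thinning and 0.42 and 0.70 on all UMIs, where at 0 h they were 0.83 and 1.63 on all UMIs. Glul had 8.44 and 7.22 on all UMIs at 0 h and PHx48h. Slc1a2 had 16.3 at PHx48h with thinning, from 34 UMIs, and 5.76 and 7.39 on all UMIs at 0 h and PHx48h. The excess of both genes stayed above 5 at PHx48h, where their levels were lower. Axin2, Lgr5 and Tbx3 had at most 18 UMIs left in either high-mt set after thinning, too few for this measure.

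The correlation between the members across barcodes was then computed within each library, on log(1 + UMIs per 10000 non-mt UMIs). Barcodes of 1 library share the animal, the preparation and the sequencing, so the values are a description. In the 3870 high-mt undamaged barcodes all 45 pairs had a Pearson r above 0 and 30 were above 0.1, with a median of 0.14 and a range of 0.017 to 0.56. In the 765 high-mt PHx48h barcodes all 45 were above 0 and 34 were above 0.1, with a median of 0.18 and a range of 0.023 to 0.52. In low-mt barcodes the medians were 0.0014 at 0 h, where no pair passed 0.1, and 0.054 at PHx48h, where 4 pairs did.

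For the 7 members with at least 30 UMIs in each of the 4 sets, a subset chosen after the data were seen, the 21 pairs had a median r of 0.34 (0.24 to 0.56) at 0 h and 0.30 (0.15 to 0.52) at PHx48h in high-mt barcodes. The corresponding medians in low-mt barcodes were 0.0018 and 0.077. PHx48h barcodes were deeper, and with all barcodes thinned to 500 UMIs the medians of the high-mt sets were 0.21 and 0.10. In high-mt barcodes the r of a member with the mt share lay between -0.21 and -0.024 at 0 h and between -0.055 and 0.12 at PHx48h.

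**Figure D5:**
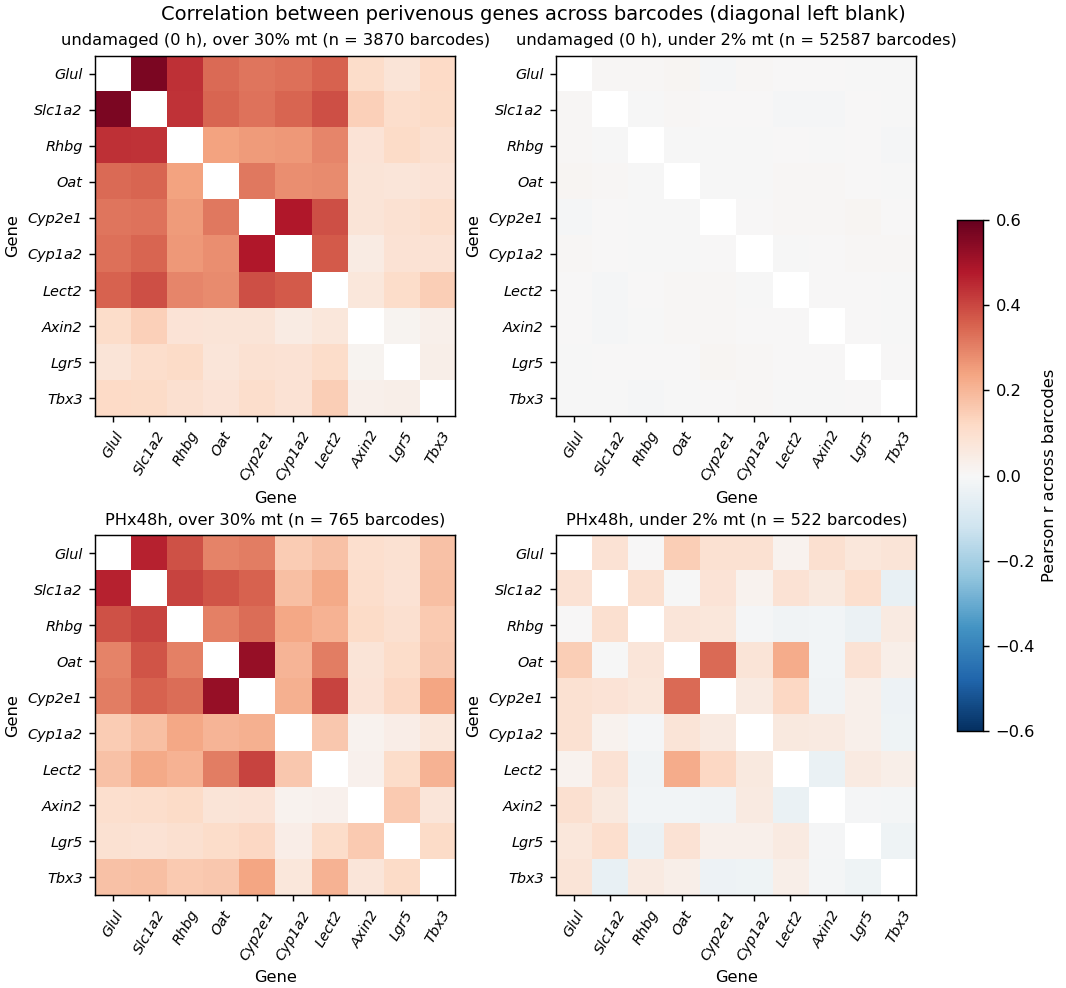
Pearson r across barcodes for each pair of the 10 genes in the 4 barcode sets, from -0.6 (blue) to 0.6 (red), with the diagonal blank. The abundant genes form a red block in both high-mt panels, the low-mt undamaged panel is pale throughout, and in the low-mt PHx48h panel Oat with Cyp2e1 stands out at 0.34.

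Glul and Slc1a2 had the highest r of any pair at 0 h, 0.56, and 0.46 at PHx48h. The r of Glul with Rhbg was 0.44 and 0.38. Because sparse counts lower r, a UMI-weighted fold was also computed, which is the level of the second gene in the barcode of an average UMI of the first, over its mean level, and is 1 where the 2 genes fall on barcodes independently. For Glul with Slc1a2 it was 7.08 at 0 h and 6.43 at PHx48h on all UMIs, and 6.77 and 7.41 after thinning to 500. The r of this pair after thinning was 0.38 and 0.23. For Slc1a2 with Rhbg it was 6.996 and 7.096 on all UMIs, but 7.52 and 3.21 after thinning, with an r of 0.28 and 0.039 and 14 Rhbg UMIs left at PHx48h. For Glul with Rhbg the r after thinning was 0.30 and 0.12, and the fold 7.07 and 5.59, against 6.98 and 5.92 on all UMIs. The median over the 21 pairs on all UMIs was 2.85 and 2.39 in high-mt barcodes and 1.0004 and 1.05 in low-mt barcodes. By the weighted fold, Glul and Slc1a2 were thus found together in the same high-mt barcodes at both time points with and without thinning. The r of each of these pairs was lower after thinning, and the fold of Slc1a2 with Rhbg at PHx48h also depended on depth.

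Some pairs differed between the libraries. Cyp2e1 with Cyp1a2 had an r of 0.48 at 0 h and 0.21 at PHx48h, or 0.32 and 0.062 after thinning to 500, and a weighted fold of 1.82 and 1.43. Cyp2e1 with Oat had 0.32 and 0.52, or 0.19 and 0.27 after thinning, and a weighted fold of 1.75 and 1.94. The first pair was thus less and the second more closely linked at PHx48h by all 3 measures, with 1 library at each time point and no test of the difference. In the low-mt PHx48h set, Oat with Cyp2e1 fell from 0.34 to 0.028 after thinning.

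Axin2, Lgr5 and Tbx3 were weakly linked to the others. Their r with the mean of the other 9 members was 0.13, 0.14 and 0.16 at 0 h, where Slc1a2 had 0.59 and Glul 0.56. At PHx48h it was 0.15, 0.19 and 0.28, where Cyp2e1 had 0.55 and Cyp1a2 0.26. With so few UMIs, a weak r of these 3 genes is no finding.

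The members' mean was set beside the zonal lists. Its r with the mean of the 15 other perivenous genes was 0.72 at 0 h and 0.69 at PHx48h in high-mt barcodes, and with the mean of the 14 periportal genes -0.28 and -0.62. In low-mt barcodes the values were 0.0096 and 0.37 with the perivenous list and 0.0093 and -0.089 with the periportal list. All these values were computed without thinning. In the low-mt PHx48h set the r with the logarithm of depth was -0.30 for Oat and -0.27 for Cyp2e1, and how far the 0.37 depends on depth was not tested. The high-mt barcodes thus differed among themselves along the perivenous and periportal lists in both libraries, and no measurement of Wnt signalling itself was made.

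Barcodes rich in Glul show what the correlation means in levels. After thinning, 154 of the high-mt undamaged barcodes (4.06%) held at least 2 Glul UMIs and 3396 held none. Slc1a2 stood at 1364 CPM (1115 to 1651) in the former and 74.8 (62.4 to 89.0) in the latter. Rhbg stood at 714 (538 to 930) against 35.3 (27.0 to 45.5), and Oat at 1623 against 292.

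Cyp2e1, Cyp1a2 and Lect2 were also higher beside Glul. Cyp2e1 stood at 8584 (7942 to 9265) against 2773 (2694 to 2853), Cyp1a2 at 2701 against 674 and Lect2 at 1195 against 247. Tbx3 had 6 UMIs in the 154 barcodes and 11 in the 3396, at 77.9 CPM (28.6 to 170) and 6.48 (3.23 to 11.6). Axin2 had 3 and 5 UMIs, at 39.0 (8.03 to 114) and 2.94 (0.96 to 6.87), and Lgr5 had 1 and 9, at intervals that overlapped. In low-mt undamaged barcodes the same division gave Slc1a2 at 134 (92.2 to 188) and 108 (104 to 112), with overlapping intervals, and Cyp2e1 at 5602 and 5797.

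At PHx48h 16 high-mt barcodes (2.09%) held at least 2 Glul UMIs among 500. Slc1a2 stood at 1000 (432 to 1970) in them, from 8 UMIs, against 56.5 (34.5 to 87.3) in the 708 barcodes without Glul. Cyp2e1 stood at 3625 (2428 to 5206) against 732, and Oat at 2750 (1723 to 4164) against 799. Cyp1a2 stood at 875 (352 to 1803) against 280 (227 to 340). The intervals of these 4 genes, which cover counting error only and not the spread between barcodes, did not overlap. Those of Rhbg, 250 (30.3 to 903) against 25.4 (11.6 to 48.3), and of Lect2, 500 (136 to 1280) against 237 (189 to 294), did.

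The genes whose pattern was most like that of Glul were ranked by r among the 2435 genes detected in at least 5% of high-mt undamaged barcodes. Slc1a2 came first, followed by Cyp2a5 (0.45), Rhbg, Lect2, Gulo (0.35), Oat, Cyp1a2 and Cyp2e1, so that 6 of the first 8 were members. At PHx48h, among 7762 genes, the order was Slc1a2, Rhbg, Slc13a3 (0.34), Cyp2a5 (0.32), Cyp2e1, Oat, Saa2 (0.28) and Apoc1 (0.27), with Lect2 at rank 27 and Cyp1a2 at rank 43. The lowest r belonged to the secretory genes Serpina1e (-0.43) and Hp (-0.42) at 0 h and to Cps1 (-0.36) and Hpx (-0.32) at PHx48h. These were among the more abundant transcripts, and all genes of a barcode are divided by 1 common total.

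For Cyp2e1 the first 8 at 0 h were Cyp2c29 (0.50), Mup17 (0.49), Cyp1a2, Gulo (0.47), Cyp2a5 (0.46), Slco1b2 (0.43), Cyp2c50 (0.43) and Lect2. At PHx48h they were Cyp2c29 (0.63), Cyp2a5 (0.61), Mup17 (0.53), Oat, Saa1 (0.50), Cyp2c50 (0.48), Rgn (0.47) and Apoc1 (0.45). Ranks were among 2435 genes at 0 h and 7762 at PHx48h, so those of the 2 time points are not on 1 scale. Cyp1a2 stood at rank 3 at 0 h and 56 at PHx48h, and Oat at rank 16 and 4. Glul was not among the first 8 at either time, at rank 14 and 28. The Mup, Saa, Cyp2a and Cyp2c genes have near-identical relatives, so that their own counts are uncertain.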

How the data were processed

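scRNA-Seq counts of hepatocytes were analysed for 1 undamaged (0 h) and 1 PHx48h library, grouped by the time point in their labels. The authors ran Cell Ranger on 10x 3′ v2 libraries and, per the labels, used mm10 (its version and annotation are not given in the sources used here). They deposited UMI counts per gene and barcode, whole numbers without normalization, for 27998 genes and 59202 and 1586 barcodes. The study's methods name filters on mitochondrial content and doublets without thresholds. No doublet caller was run here.

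The 10 members, the gene lists and the barcode limits were chosen with earlier results of these data known. UMIs were summed over barcodes with over 30% (high-mt) or under 2% (low-mt) UMIs of 13 mitochondrial genes and scaled to 1000000 non-mt UMIs (CPM). Intervals at 95% are exact Poisson for levels, conditional Clopper-Pearson for ratios and exact binomial for shares, and cover counting error only. A gene was tested when its mean level over both libraries was at least 5 CPM, and was counted as changed past 2-fold with 0.5 UMI added to each count. No replicate existed, so no statistical test was run. Shares, spread and weighted folds used barcodes thinned without replacement to 500 non-mt UMIs, or all UMIs where stated. Pearson r was computed on log(1 + UMIs per 10000 non-mt UMIs). Scripts were tested on simulated data. All 10 members were named throughout, and of each list the 2 to 4 genes with the most UMIs over both high-mt sets. Axin1, Wnt9b, Rspo1 and Rspo3 were named after their values were seen. Neighbours of Glul and Cyp2e1 were the 8 highest r among genes found in at least 5% of high-mt barcodes. Alternatives were other mt limits (20%, 50% and 1%), scaling without the 20 most abundant genes, centring on the median gene, leaving out barcodes with 3 or more UMIs of other cell type markers, the mean of single-barcode levels, a minimum of 1000 non-mt UMIs, no minimum level, 5 CPM added, 1.5-fold, thinning to 300 or 1000, and Spearman's rho. Python 3.11.15 with numpy 2.4.6, scipy 1.17.1, pandas 2.3.3 and matplotlib 3.10.9 was used. Gene positions are from GENCODE M21 (GRCm38, the assembly of mm10), found for all 10 members by gene identifier, and upstream sequences from RefSeq (GRCm38.p6), found for 7.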

Additional observations from a re-analysis of the deposited data

How the results depend on the processing

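No paired analysis was possible because each group held 1 library. The number of high-mt members at least 2-fold lower at PHx48h was 5 in the report, beside 5.06% of all tested genes. It was 2 with a limit of 50% mt (5.92% of all) and 3 with the mean of single-barcode levels (5.47%). The latter also put 1 member at least 2-fold higher, beside 30.5% of all. The count lower was 6 with a limit of 20% mt (5.14%), 6 without the 20 most abundant genes (8.56%) and 7 with no minimum level (11.4%). A 1.5-fold limit put 1 member higher in each set, beside 48.4% of all tested genes in the high-mt set and 35.1% in the low-mt set. The median log2 ratio of the tested members, -1.28, was -1.42 with a limit of 20% mt, -0.75 with 50%, -1.66 when scaled without the 20 most abundant genes, -1.83 when centred, -0.81 with single-barcode levels and -1.42 with no minimum level. Centring left 13.7% of all genes at least 2-fold lower and 14.2% higher in the high-mt set, where the report's scaling gave 5.06% and 30.7%. Without the 20 genes the shares were 8.56% and 21.4%, and in the low-mt set 27.0% and 18.0%. The count of low-mt members lower, 4 in the report beside 20.2% of all, was 6 without the 20 genes. It was 3 with 5 CPM added (14.4% of all), 5 with no minimum level (14.4%) and 6 at 1.5-fold (30.6%). Of 130 recomputed ratios of single members, 94 stayed within their counting interval, 36 moved past it and 0 turned with an interval clear of 0.

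The median share of barcodes with a UMI over the 10 members rose with depth. Thinned to 300, 500 and 1000 and unthinned it was 5.71%, 8.30%, 13.9% and 15.7% in high-mt undamaged barcodes and 4.78%, 7.77%, 14.7% and 20.9% in low-mt undamaged barcodes. At 500, 1000 and unthinned it was 5.36%, 10.1% and 27.7% in high-mt and 5.27%, 9.48% and 40.8% in low-mt PHx48h barcodes. The median excess CV squared of the 7 abundant members was 1.80 in high-mt undamaged barcodes. It was 1.41 in high-mt PHx48h barcodes (1.22 at 1000), 0.15 in low-mt undamaged barcodes (0.12 at 1000 and 0.13 on all UMIs), and -0.13 in low-mt PHx48h barcodes (0.020 at 1000, 0 without barcodes with other markers and 0.13 on all UMIs), where 7 or fewer UMIs remained for Slc1a2 and Rhbg. The median weighted fold of high-mt PHx48h barcodes was 2.23, and 1.91 at 1000.

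The median r of the 45 pairs, 0.14 in high-mt undamaged barcodes, was 0.13 as Spearman's rho, 0.079 thinned to 500, 0.10 with a limit of 50% mt and 0.34 over the 7 abundant members. In high-mt PHx48h barcodes it was 0.18, against 0.10 at 500 (28 pairs with a UMI of both genes), 0.079 at 1000 and 0.30 over the 7. In low-mt undamaged barcodes it was 0.0014, against 0.00085 as rho, -0.0020 at 500, -0.00017 at 1000 and 0.0018 over the 7. In low-mt PHx48h barcodes it was 0.054, against 0.045 as rho, -0.0063 at 500, 0.012 at 1000 and 0.077 over the 7. The cause of these shifts was not tested beyond the depth and barcodes that each alternative sets. The alternatives on all UMIs and over the 7 abundant members were chosen after seeing the data. With 2 to 26 UMIs of Axin2 in 3 of the 4 sets, depth limits that gene most.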
